A study of Mus musculus with 24 samples.

Results

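The difference between obese NZO mice and lean C57BL/6 mice (B6) was compared between skeletal muscle and gonadal white fat (gWAT), gene by gene, on 15 of the 24 arrays of the study. The quantity followed throughout is the interaction: NZO minus B6 in muscle, minus NZO minus B6 in gWAT. The arrays were chosen by strain and tissue: 4 of NZO muscle, 3 of B6 muscle, 4 of NZO gWAT and 4 of B6 gWAT. 1 further array labelled B6 muscle was left out because it held fat transcripts, as described below. All mice were males of NZO/HiBomDife or C57BL/6 on a diet with 45% fat, and tissue was taken at 6 weeks of age. Muscle is called quad in the sample titles. Total RNA with an integrity number above 8 was labelled with Cy3 and read on a single-colour Agilent array, 1 RNA to an array. Nothing in the labels ties the samples of a group to different animals. The p-values therefore measure the spread between samples, which may be technical.

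White fat stores triglyceride in adipocytes and secretes hormones such as leptin and adiponectin, and in obesity it takes up macrophages, among them lipid-laden cells marked by Trem2 and Gpnmb. Skeletal muscle takes up most of the glucose cleared after a meal and stores little fat within its fibres. An interaction near 0 means that the strains differ alike in both tissues, while a large one means that the difference is larger in, or runs the other way in, muscle or gWAT. In bulk tissue, fewer cells of a type and less RNA per cell cannot be told apart.

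Signals were put on a log2 scale, with the 75th percentile of each array subtracted, so a level of 0 is that percentile and a difference of 1 is a doubling. Arrays are given in the order 009, 011, 003 and 007 for NZO muscle, 010, 015 and 009 for B6 muscle, 009, 012, 003 and 007 for NZO gWAT, and 010, 011, 015 and 009 for B6 gWAT. Genes with an adjusted p below 0.05 in limma over 19639 genes are called. Probe positions are on mm9, as the files give them.

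The labelled tissues were checked against marker lists. The log2 of the signal summed over 10 muscle fibre genes was 13.1 to 13.3 in NZO muscle and 13.3 to 13.5 in B6 muscle, against 2.75 to 3.53 in NZO gWAT and 1.45 to 4.27 in B6 gWAT. Summed over 10 adipocyte genes it was 7.28 to 8.25 in NZO muscle, 7.73 to 8.06 in B6 muscle, 11.1 to 11.7 in NZO gWAT and 11.4 to 11.8 in B6 gWAT. Within these groups NZO muscle 003 was highest in adipocyte genes, B6 gWAT 010 in muscle fibre genes and NZO gWAT 012 in B cell genes. Liver genes varied widely between arrays in every group. Summed over 8 of them the log2 signal was 3.4 to 7.7 in NZO muscle and 3.0 to 5.6 in B6 muscle. In gWAT it was 3.5 to 7.5 in NZO mice and 2.6 to 7.2 in B6 mice. The omitted library, labelled B6 muscle 011, stood at 10.4 in adipocyte genes. Its Ifi202b level was 2.07, where NZO muscle averaged 2.39 and the 7 B6 arrays used here lay between -7.41 and -6.27. The 75th percentile of the signal was 143 to 205 units in muscle and 238 to 360 in gWAT, and no spot was saturated.

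The promoters of 7 genes are shown because they hold short motifs known to bind factors of the pathways whose gene lists held many interactions. They are the 250 bases before the RefSeq start on GRCm38.p6, 5′ to 3′ on the strand of the gene, with the motif in capitals on either strand. Hspa5 and Hsp90b1 encode chaperones of the endoplasmic reticulum and Creld2 a protein of the same compartment. Their promoters hold the endoplasmic reticulum stress element, searched as CCAAT and CCACG with any 9 bases between them.
Hspa5, chr2:34771840-34772089, plus strand: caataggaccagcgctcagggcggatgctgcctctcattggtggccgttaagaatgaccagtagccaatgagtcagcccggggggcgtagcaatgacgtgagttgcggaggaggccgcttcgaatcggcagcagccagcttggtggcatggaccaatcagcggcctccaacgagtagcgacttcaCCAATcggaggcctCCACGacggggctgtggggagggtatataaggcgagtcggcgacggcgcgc
Hsp90b1, chr10:86705445-86705694, minus strand: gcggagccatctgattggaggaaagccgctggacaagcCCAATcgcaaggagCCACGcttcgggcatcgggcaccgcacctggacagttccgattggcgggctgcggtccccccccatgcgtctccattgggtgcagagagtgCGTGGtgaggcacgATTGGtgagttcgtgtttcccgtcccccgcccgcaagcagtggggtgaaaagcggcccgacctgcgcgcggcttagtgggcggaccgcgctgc
Creld2, chr15:88819396-88819645, plus strand: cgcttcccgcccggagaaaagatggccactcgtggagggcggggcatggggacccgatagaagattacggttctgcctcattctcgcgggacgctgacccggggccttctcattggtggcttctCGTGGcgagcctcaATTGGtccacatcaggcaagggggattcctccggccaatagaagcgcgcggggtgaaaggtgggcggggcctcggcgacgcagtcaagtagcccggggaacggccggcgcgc
Ctsd encodes the lysosomal protease cathepsin D and Atp6v0b a subunit of the lysosomal proton pump. Both promoters hold CACGTG, the E-box core read by TFEB and many other factors.
Ctsd, chr7:142387828-142388077, minus strand: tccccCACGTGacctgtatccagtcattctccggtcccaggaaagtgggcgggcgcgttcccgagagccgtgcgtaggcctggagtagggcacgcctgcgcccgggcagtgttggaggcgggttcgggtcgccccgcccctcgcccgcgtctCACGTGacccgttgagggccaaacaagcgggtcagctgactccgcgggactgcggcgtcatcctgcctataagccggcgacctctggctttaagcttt
Atp6v0b, chr4:117887330-117887579, minus strand: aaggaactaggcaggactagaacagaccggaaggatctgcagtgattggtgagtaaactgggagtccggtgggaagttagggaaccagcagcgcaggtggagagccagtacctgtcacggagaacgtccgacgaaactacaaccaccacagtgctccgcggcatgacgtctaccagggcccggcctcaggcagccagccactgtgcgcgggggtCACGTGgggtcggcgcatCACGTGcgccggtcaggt
Asns encodes asparagine synthetase, a target of the transcription factor ATF4, and holds TGATGNAA. Per3 is a clock gene and holds TTATGTAA, the D-box read by DBP, TEF, HLF and NFIL3.
Asns, chr6:7693210-7693459, minus strand: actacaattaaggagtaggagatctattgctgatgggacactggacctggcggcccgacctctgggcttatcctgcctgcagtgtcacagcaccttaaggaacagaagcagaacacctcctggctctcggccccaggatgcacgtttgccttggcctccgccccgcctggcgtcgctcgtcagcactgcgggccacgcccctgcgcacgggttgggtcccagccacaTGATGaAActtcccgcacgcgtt
Per3, chr4:151044666-151044915, minus strand: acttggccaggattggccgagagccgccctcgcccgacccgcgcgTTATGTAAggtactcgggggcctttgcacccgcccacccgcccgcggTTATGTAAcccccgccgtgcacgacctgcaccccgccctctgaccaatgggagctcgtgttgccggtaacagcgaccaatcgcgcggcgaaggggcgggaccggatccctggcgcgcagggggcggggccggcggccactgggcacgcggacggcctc

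On both strands, the stress element occurred in 0.113% of 32851 promoter windows of this length, the E-box in 6.02%, TGATGNAA in 3.45% and the D-box in 0.819%. A match describes the letters and shows no binding. All genes shown come from lists chosen with earlier results of these data known, and were picked as holding the motif. Hsp90b1, Creld2, Ctsd and Atp6v0b were also chosen after their values were seen.

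The strain difference itself differed between the tissues for 3635 of 19639 genes, 18.5% of those tested. It was higher in muscle for 1537 genes (7.83%) and lower in muscle for 2098 (10.7%), and 1629 of the 3635 differed by at least 1 log2 unit. In muscle NZO differed from B6 for 2762 genes (14.1%), 1227 of them higher in NZO (6.25%) and 1535 lower (7.82%). Without array 010 or array 009 of B6 muscle the muscle count was 1661 or 1678. In gWAT it differed for 7056 genes (35.9%), 3574 higher (18.2%) and 3482 lower (17.7%). Over all genes the median interaction was -0.04 and its median standard error (SE) 0.23. Of the called interactions 42.3% were higher, against 17.4% with each array centred on its median (467 higher and 2217 lower), where the median interaction was -0.345, and 49.6% with quantile normalization.

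Most of the 3635 genes, 2291 or 63%, were called in gWAT and not in muscle, with 1313 higher and 978 lower in NZO gWAT. A further 608 were called in muscle and not in gWAT, with 228 higher and 380 lower in NZO muscle. Both tissues were called in opposite directions for 250 genes and in the same direction with unequal size for 220, while 266 were called in neither tissue alone. The muscle comparison had 1 array fewer than the gWAT comparison, and the SE of the strain difference had a median of 0.17 in muscle and 0.16 in gWAT. Without array 010 of B6 muscle the interaction counts were 999 higher and 1373 lower. Without NZO muscle 003, NZO gWAT 012 and B6 gWAT 010, named above for adipocyte, B cell and muscle fibre genes, they were 991 and 1326. That choice did not go by liver genes, in which NZO gWAT 003 stood at 7.53 and was kept. The arrays lay on 6 slides, and with slide as a fixed block 198 genes were higher and 264 lower. On the slide that held 1 array of every group 3611 of 3619 called genes had the same sign. The arrays of that slide also entered the fit that gave the calls, so the shared sign is no separate check of slide. With arrays centred on their median in place of the 75th percentile, the median interaction was -0.35 and the share of higher calls 17.4%, against 42.3% here.

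**Figure D1:**
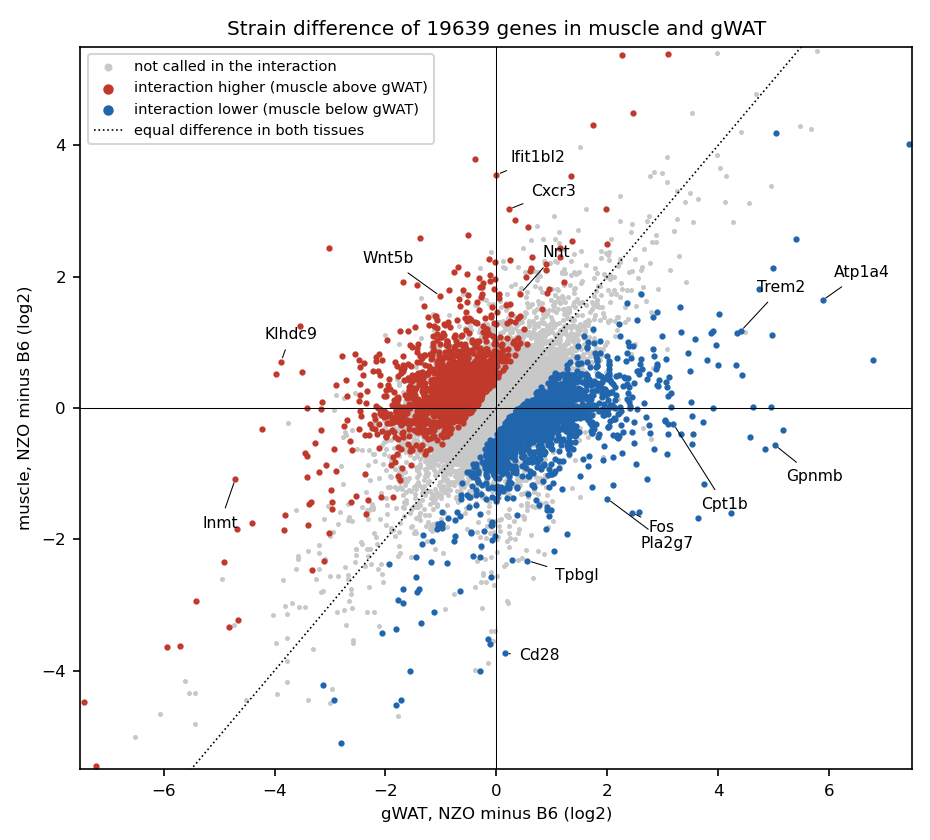
Strain difference (NZO minus B6, log2) in muscle on the vertical axis against that in gWAT on the horizontal axis, 1 point a gene for 19639 genes; 15 genes lie outside the axes. Red points have a higher and blue points a lower interaction, and the dotted line marks equal differences in both tissues. Calls spread further along the gWAT axis than along the muscle axis, and Ifit1bl2 and Cd28 lie near 0 on the gWAT axis.

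Among genes that moved in opposite directions, the immediate-early genes Fos and Arc, induced within minutes of cell stimulation, fell in NZO muscle and rose in NZO gWAT, as did Pla2g7, Mpeg1, Fam83d and Tpbgl. Wnt5b, Angpt1, Il17re, Rspo3, Ppfia4 and Asns did the reverse. Apart from Asns, these genes are among the 12 with the largest interactions of those of the 250 that were well above background on all 15 arrays.

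Pla2g7 (probe at chr17:43749032-43749091) encodes a secreted phospholipase that degrades platelet-activating factor. Its level was 1.39, 1.57, 1.5 and 1.62 in NZO muscle, against 2.88, 2.83 and 3.0 in B6 muscle. In gWAT the same probe read 2.25, 2.62, 2.44 and 2.03 in NZO mice and 0.11, 0.53, 0.83 and -0.14 in B6 mice. Every NZO array was below every B6 array in muscle and above every B6 array in gWAT. The strain difference was -1.38 ± 0.20 in muscle, 2.60-fold lower in NZO, and 2.0 ± 0.18 in gWAT, 4.01-fold higher (SE; 4 NZO and 3 B6 muscle arrays, 4 and 4 gWAT arrays). Its interaction was -3.38 ± 0.27 (adjusted p = 9.02e-06).

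Fos stood at -1.95, -2.26, -1.19 and -1.58 in NZO muscle, against 0.86, -1.02 and -0.31 in B6 muscle. Its levels were 0.35, 0.73, 0.76 and 0.25 in NZO gWAT, against -2.14, -1.75, -2.15 and -1.68 in B6 gWAT. The B6 muscle arrays were spread widely, but no NZO array overlapped them in either tissue. Fos was 3.02-fold lower in NZO muscle and 5.46-fold higher in NZO gWAT, an interaction of -4.04 ± 0.49 (adjusted p = 0.000179). Arc (chr15:74499592-74499651) read -2.22, -1.86, -2.61 and -1.34 in NZO muscle and 0.01, 0.15 and 0.32 in B6 muscle. In gWAT it read -1.73, -1.99, -1.77 and -1.65 in NZO mice and -3.22, -3.51, -2.06 and -2.51 in B6 mice. NZO was again lower throughout in muscle and higher throughout in gWAT, with strain differences of -2.17 ± 0.32 and 1.04 ± 0.30 and an interaction of -3.21 ± 0.44 (adjusted p = 0.000419).

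Mpeg1, which encodes the macrophage pore-forming protein perforin-2, had strain differences of -0.68 in muscle and 2.26 in gWAT. Tpbgl had levels of -0.61, -0.24, 0.09 and -0.51 in NZO muscle against 2.16, 1.82 and 2.05 in B6 muscle, 5.01-fold lower in NZO without overlap. In gWAT it was 1.48-fold higher in NZO, with an interaction of -2.89 ± 0.25. The strain differences were -2.32 in muscle and 0.56 in gWAT, both called.

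Wnt5b (chr6:119382550-119382609), a secreted WNT ligand, read 1.54, 1.53, 1.19 and 1.60 in NZO muscle and 0.02, -0.37 and -0.36 in B6 muscle. In NZO gWAT it read -0.73, -0.72, -0.89 and -0.48, against 0.12, 0.24, 0.54 and 0.31 in B6 gWAT. All NZO arrays were above B6 in muscle and below B6 in gWAT. It was 3.26-fold higher in NZO muscle and 2.01-fold lower in NZO gWAT, with an interaction of 2.71 ± 0.20 (adjusted p = 4.00e-06). Angpt1, the ligand of the endothelial receptor Tie2, stood at 2.14, 1.67, 1.95 and 2.07 in NZO muscle against 0.96, 0.93 and 0.86 in B6 muscle. In gWAT it stood at 0.12, -0.83, -0.60 and 0.03 in NZO mice and 1.51, 1.85, 2.09 and 1.15 in B6 mice. The groups did not overlap in either tissue, and the interaction was 3.01 ± 0.34 (adjusted p = 0.000105). Rspo3, which enhances WNT signalling, had strain differences of 0.82 in muscle and -2.12 in gWAT.

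Il17re, a subunit of the receptor for interleukin 17C, was 1.77-fold higher in NZO muscle and 5.85-fold lower in NZO gWAT (interaction 3.37 ± 0.26, adjusted p = 6.45e-06). Ppfia4, a synaptic scaffold of the liprin family, had an interaction of 2.87, but another probe of the gene gave 0.42. Asns read 1.81, 1.68, 1.82 and 2.28 in NZO muscle against 0.90, 0.96 and 0.72 in B6 muscle, and 4.51, 4.12, 4.11 and 4.75 in NZO gWAT against 5.68, 5.27, 4.95 and 5.84 in B6 gWAT. It was thus 2.06-fold higher in NZO muscle and 2.09-fold lower in NZO gWAT, with no overlap in either tissue (interaction 2.11 ± 0.30, adjusted p = 0.000544).

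**Figure D2:**
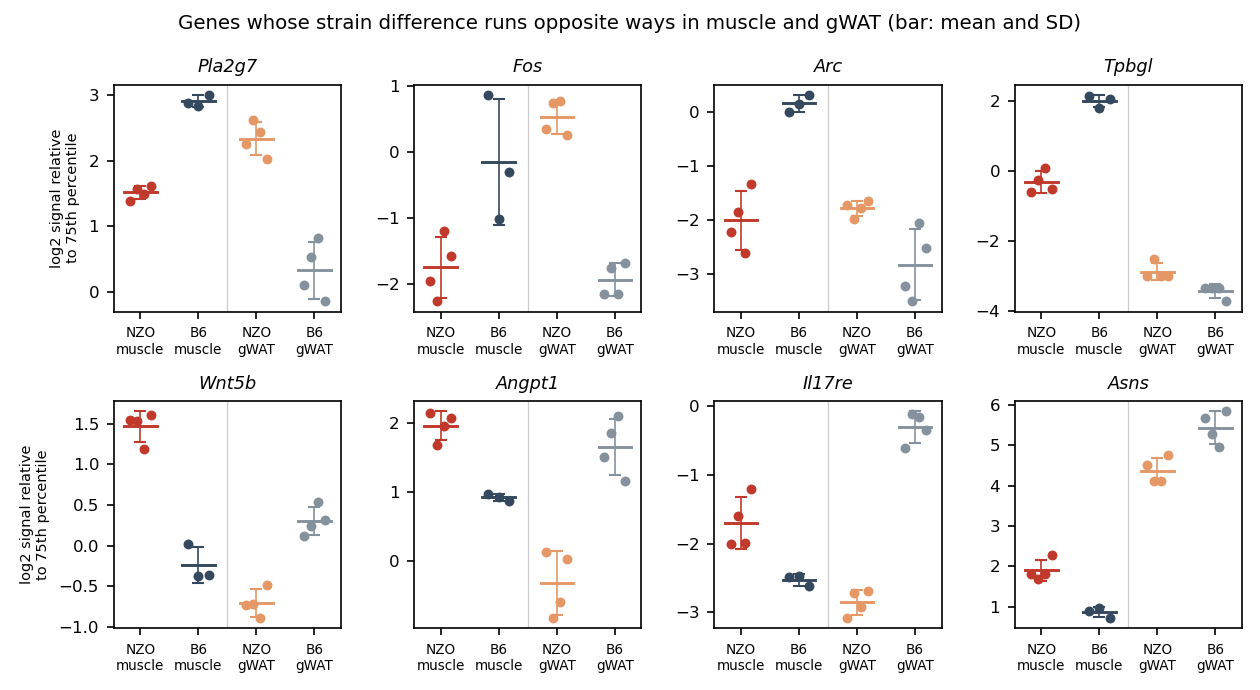
Log2 signal, with the 75th percentile of each array set to 0, for 8 genes whose strain difference ran opposite ways; points are arrays (4 NZO muscle, 3 B6 muscle, 4 NZO gWAT, 4 B6 gWAT) and bars give the mean and SD. In the upper row (Pla2g7, Fos, Arc, Tpbgl) the NZO arrays lie below B6 in muscle and above B6 in gWAT, and in the lower row (Wnt5b, Angpt1, Il17re, Asns) the order is turned.

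Among the genes well above background on all 15 arrays that differed in muscle and were not called in gWAT, the highest were Ifit1bl2 and Cxcr3 and the lowest Cd28, Phlda3 and Smox. All of these read overlapping levels in NZO and B6 gWAT on the same probes. Ifit1bl2 (chr19:34691566-34691625), of the interferon-induced Ifit family, read 2.62, 2.74, 2.26 and 2.48 in NZO muscle, against -1.09, -0.96 and -1.02 in B6 muscle. Its levels were 0.16, 0.05, 0.22 and 0.23 in NZO gWAT, against 0.29, 0.25, 0.09 and 0.02 in B6 gWAT. The strains lay far apart in muscle and interleaved in gWAT. The gene was 11.7-fold higher in NZO muscle, with an interaction of 3.55 ± 0.16 (adjusted p = 7.44e-08). Ifit genes resemble each other in sequence, and reading of a relative by this probe was not tested.

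Receptors of lymphocytes were among the muscle differences. Cxcr3, a chemokine receptor of activated T cells, stood at 0.14, 0.36, 0.73 and 0.11 in NZO muscle, against -2.72, -2.88 and -2.48 in B6 muscle. It was 8.16-fold higher in NZO muscle and 1.17-fold higher in NZO gWAT, where it was not called. Cd28 (chr1:60830144-60830203), the co-stimulatory receptor of T cells, went the other way. Its levels were -3.0, -2.93, -2.98 and -2.87 in NZO muscle, against 1.25, 0.18 and 0.95 in B6 muscle. In gWAT they were -2.95, -2.13, -2.81 and -2.45 in NZO mice and -2.81, -2.50, -2.73 and -2.92 in B6 mice. B6 muscle was high and the other groups low, with B6 muscle 13.3-fold above NZO muscle, and the interaction was -3.89 ± 0.32 (adjusted p = 9.23e-06). Btla, an inhibitory receptor of B and T cells, was well above background on all NZO muscle arrays and on no B6 muscle array, at least 12.3-fold higher in NZO. Unlike Cxcr3 and Cd28 it was also called in gWAT, 5.51-fold higher in NZO.

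The general T cell markers were not called in muscle. Cd3e, Cd4 and Lck had strain differences of 0.02, 0.00 and 0.39 there, none of them called, and Cd3g was well above background on no muscle array. The log2 signal summed over 7 T cell genes was 2.78 to 3.5 in NZO muscle and 2.90 to 3.19 in B6 muscle, and 2.35 to 2.99 in NZO gWAT and 2.32 to 2.65 in B6 gWAT. Ccl19, a chemokine of lymph node stroma, was much higher in NZO muscle, at 3.99, 4.06, 3.62 and 3.82 against -1.24, -1.72 and -1.55 in B6 muscle, and higher in NZO gWAT by 2.28 (interaction 3.10 ± 0.33). The other lymph node stroma genes tested, Cxcl13, Cr2 and Madcam1, were called in neither tissue. The list summed to 3.67 to 4.08 in NZO muscle, -0.83 to -0.67 in B6 muscle, 1.5 to 3.33 in NZO gWAT and 0.07 to 0.56 in B6 gWAT. On the NZO muscle arrays the sums were 4.02, 4.08, 3.67 and 3.87, little above Ccl19 alone, so they add nothing to Ccl19 there. The part of such cells in these results was not tested. Of 5 tested mast cell genes 4 were higher in NZO muscle, and Kit, their growth factor receptor, was also lower in NZO gWAT (interaction 1.88). These marker genes and Ccl19 were chosen after values were seen.

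Phlda3, a p53 target that restrains AKT, stood at 4.84, 4.05, 4.11 and 4.96 in NZO muscle, against 6.78, 6.51 and 6.99 in B6 muscle. Its gWAT levels overlapped, at 6.26 to 6.79 in NZO mice and 6.49 to 7.23 in B6 mice. Phlda3 was 4.83-fold lower in NZO muscle (interaction -1.99 ± 0.34, adjusted p = 0.00166). Smox, the spermine oxidase of polyamine breakdown, read 5.11, 4.51, 5.41 and 4.97 in NZO muscle and 7.18, 7.22 and 6.91 in B6 muscle, 4.29-fold lower in NZO. In gWAT it was 1.21-fold lower without being called, and its interaction was -1.82 ± 0.25 (adjusted p = 0.000445). Cntn1, a neural adhesion protein, had strain differences of 2.76 in muscle and 0.57 in gWAT, not called in gWAT.

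Nnt, the mitochondrial transhydrogenase that makes NADPH, differed in both tissues but more in muscle. Its levels were 4.16, 3.94, 3.68 and 4.03 in NZO muscle, against 2.50, 1.92 and 2.21 in B6 muscle. In gWAT they were 2.19, 1.90, 1.91 and 2.11 in NZO mice and 1.58, 1.51, 1.73 and 1.54 in B6 mice. NZO exceeded B6 3.35-fold in muscle and 1.35-fold in gWAT, an interaction of 1.31 ± 0.20 (adjusted p = 0.000822). C57BL/6J mice are known to carry a deletion in Nnt, and the labels do not give the substrain.

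MHC class II genes, which present antigen on macrophages, dendritic cells and B cells, were lower in NZO muscle. H2-Aa stood at -0.52, -0.38, 0.59 and 0.46 in NZO muscle, against 2.02, 2.02 and 1.74 in B6 muscle. In NZO gWAT it stood at 2.84, 3.38, 2.52 and 2.78, against 3.27, 3.23, 3.71 and 3.13 in B6 gWAT. The strains were apart in muscle, 3.71-fold, and overlapped in gWAT (interaction -1.43 ± 0.37, adjusted p = 0.0184). H2-DMb1, which helps load peptides, was 2.35-fold lower in NZO muscle and 1.07-fold higher in NZO gWAT without a call there (interaction -1.32 ± 0.22). Of 15 tested genes of antigen presentation, 7 had a lower and 0 a higher interaction, and the list median was -0.50. In muscle 6 were lower and 1 higher in NZO, and in gWAT 2 were lower and 3 higher. H2-Ab1, which encodes a chain of a class II molecule, fell in both tissues, 5.10-fold in NZO muscle and 2.25-fold in NZO gWAT (interaction -1.18 ± 0.35, adjusted p = 0.0326). Without array 010 of B6 muscle 3 genes had a lower interaction in place of 7. With quantile normalization the count was also 3, and H2-Ab1 (adjusted p = 0.292) and Cd74 (adjusted p = 0.0901), the invariant chain, were not called. The log2 of the signal summed over 6 B cell genes was 0.62 to 0.86 in NZO muscle, -0.20 to -0.05 in B6 muscle, 1.83 to 4.29 in NZO gWAT and 0.43 to 0.84 in B6 gWAT, and Pax5 was well above background on none of these arrays. The part of these cells in the antigen presentation values was not tested.

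**Figure D3:**
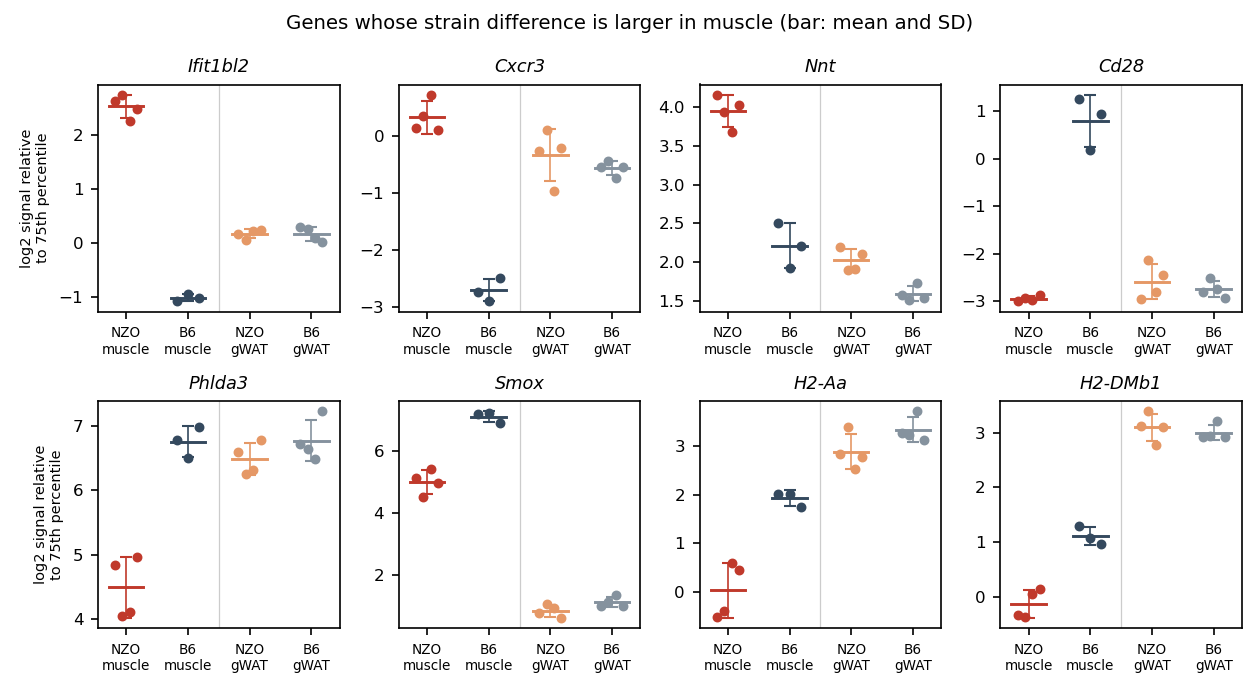
Log2 signal, with the 75th percentile of each array set to 0, for 8 genes whose strain difference was larger in muscle; points are arrays (4 NZO muscle, 3 B6 muscle, 4 NZO gWAT, 4 B6 gWAT) and bars give the mean and SD. NZO and B6 muscle are apart in every panel, and the gWAT groups overlap in every panel but Nnt.

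Interactions were ranked among genes well above background on all 15 arrays, without strain overlap in the tissue with the larger difference. Separation of the ranked genes in that tissue was thus set by the choice. The lowest interactions were those of Gpnmb, Otop1, Tceal5, Cidea, Atp1a4 and Stab2, all higher in NZO gWAT. Klhdc9, Alkal2, Cdsn and Inmt, all lower in NZO gWAT, were among the highest. Gpnmb, a glycoprotein of lipid-laden macrophages, read -3.08, -2.49, -1.81 and -2.58 in NZO muscle and -1.84, -1.83 and -2.12 in B6 muscle. In gWAT it read 3.07, 3.83, 3.64 and 2.88 in NZO mice, against -1.96, -1.95, -0.92 and -1.85 in B6 mice. The strains overlapped in muscle and lay far apart in gWAT. It was 32.6-fold higher in NZO gWAT, and its interaction was -5.59 ± 0.44 (adjusted p = 7.73e-06). Stab2, a scavenger receptor of sinusoidal endothelium, had strain differences of -0.54 in muscle, not called, and 3.53 in gWAT.

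Atp1a4 (chr1:174153644-174153703), a sodium pump subunit best known from sperm, rose in both tissues by unequal amounts. It stood at 0.13, -0.18, 0.29 and 0.11 in NZO muscle against -1.82, -1.59 and -1.25 in B6 muscle, and at 5.5, 4.64, 4.54 and 5.63 in NZO gWAT against -0.84, -1.34, -0.65 and -0.40 in B6 gWAT. NZO was above B6 on every array, 3.12-fold in muscle and 59.2-fold in gWAT (interaction -4.25 ± 0.38). Alkal2, a ligand of the receptor tyrosine kinase ALK, read -3.28, -3.81, -3.59 and -3.19 in NZO gWAT and 0.62, 0.45, 0.51 and 0.42 in B6 gWAT. It was 15.6-fold lower in NZO gWAT, while in muscle the strains overlapped (interaction 4.48 ± 0.38, adjusted p = 1.53e-05). Klhdc9, a kelch domain protein, was 14.7-fold lower in NZO gWAT and not called in muscle (interaction 4.59 ± 0.36). Agt, the precursor of angiotensin, was 1.60-fold lower in NZO muscle and 10.9-fold lower in NZO gWAT (interaction 2.76 ± 0.28).

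Several genes crossed the background limit in a single tissue. Wif1, a secreted WNT inhibitor, and Mstn, which encodes myostatin, the brake on muscle growth, were well above background on all arrays except those of B6 gWAT. Mstn read 1.48, 2.03, 2.29 and 1.83 in NZO muscle and 2.46, 2.02 and 2.59 in B6 muscle, and was not called there. In NZO gWAT it read -1.87, -2.77, -2.91 and -2.22, at least 6.12-fold above B6 gWAT. Wif1 was at least 32.4-fold higher in NZO gWAT, where it read 0.44, -0.62, -0.31 and 0.34. Tbx5, a transcription factor of heart and forelimb, was at least 9.92-fold higher in NZO gWAT. In muscle Mogat2, an enzyme of triglyceride synthesis, was at least 5.85-fold and Cds1, an enzyme of phospholipid synthesis, at least 4.55-fold higher in NZO, while Cd59b, an inhibitor of complement lysis, was at least 4.77-fold lower. Mogat2 and Cds1 also rose in NZO gWAT, by 3.08 and 1.15, and the interaction of Mogat2 was not called (adjusted p = 0.777). Cd59b had a difference of -0.09 in gWAT, not called. Ifi202b, an interferon-inducible gene of the p200 family, was at least 98.4-fold higher in NZO muscle and at least 520-fold higher in NZO gWAT. Both of these are lower bounds, so that the size of the Ifi202b difference cannot be compared between the tissues.

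Gene lists show where the interactions gathered. Of 464 tested genes in 25 pathway lists, 113 were called. Beside the list counts within a tissue, 6.25% of all tested genes were higher and 7.82% lower in NZO muscle. In NZO gWAT these shares were 18.2% and 17.7%. Against the shares over all genes, 7.83% higher and 10.7% lower, the lists with the largest shares of lower calls were lipid-associated macrophage genes, lysosomal genes, antigen presentation, resident macrophages, the thermogenic programme and the unfolded protein response. The clock and adipokine lists had the largest shares of higher calls. With slide as a fixed block the lower calls were 5 for lipid-associated macrophages, 2 for resident macrophages, 4 for lysosomal genes, 4 for the thermogenic programme and 2 for the unfolded protein response, while antigen presentation had 0 lower and the clock 0 higher. In the respiratory chain list limma called 0 of 31 genes, with 2 at an unadjusted p below 0.05, and with quantile normalization 7 were higher.

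**Figure D4:**
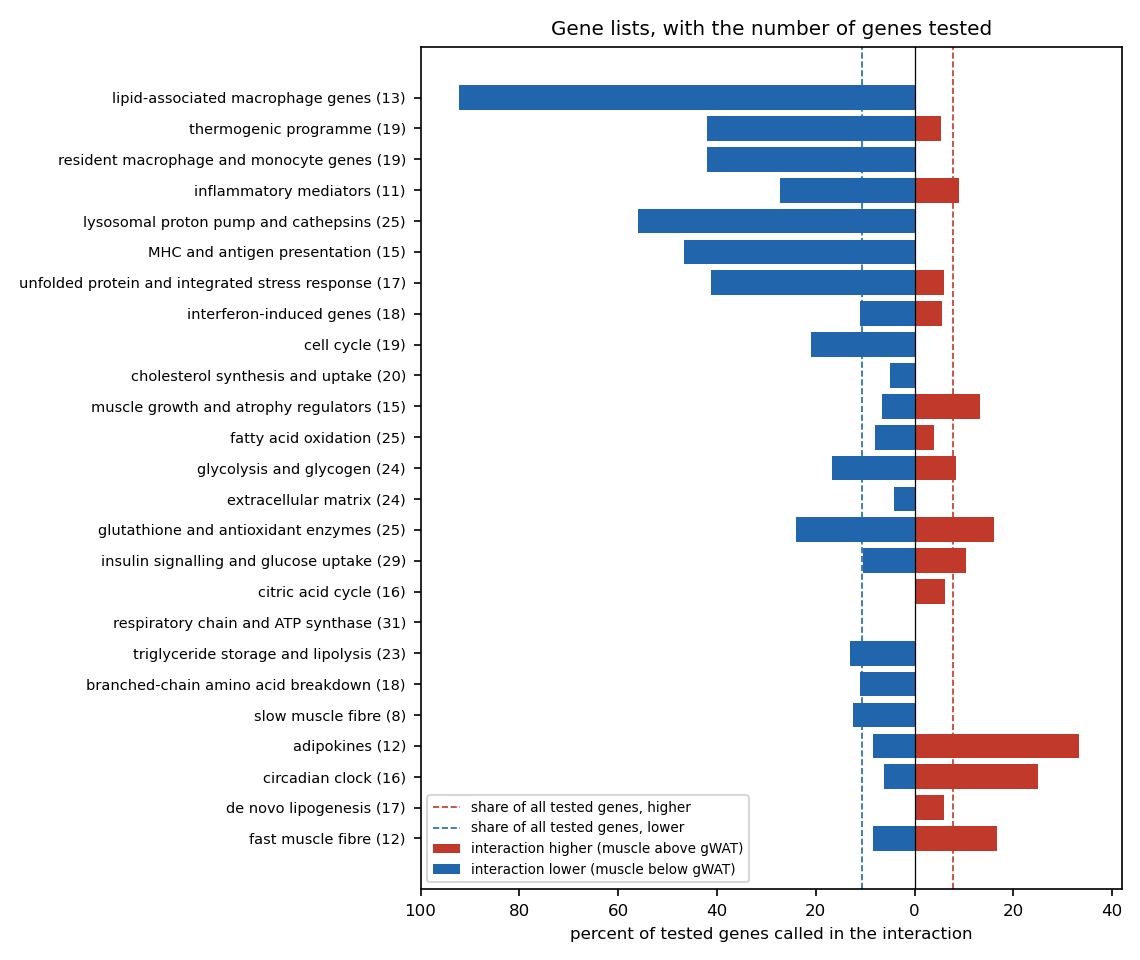
Percent of the tested genes of each list with a lower interaction (blue, to the left) or a higher interaction (red, to the right); numbers in brackets are genes tested, and dashed lines give the shares of all tested genes, 10.7% lower and 7.83% higher. Lipid-associated macrophage genes reach 92.3% lower, and the respiratory chain list has no call with this scaling.

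Lipid-associated macrophage genes were raised in NZO gWAT with little difference in muscle. Of 13 tested genes, 2 rose in NZO muscle and 12 in NZO gWAT, 12 had a lower interaction, and the list median was -1.66. Trem2, the lipid receptor of these cells, stood at -0.31, -0.85, 0.18 and 0.09 in NZO muscle, against -1.63, -0.99 and -1.56 in B6 muscle. In gWAT it stood at 5.0, 5.43, 5.10 and 5.02 in NZO mice, against 0.54, 0.90, 0.93 and 0.54 in B6 mice. NZO was higher on every array of both tissues, 2.25-fold in muscle and 21.2-fold in gWAT, and the interaction was -3.24 ± 0.32 (adjusted p = 4.37e-05). Itgax, the integrin CD11c, Lgals3, a galectin, and Lipa, the lysosomal acid lipase, rose in NZO gWAT by 2.85, 2.04 and 2.39, and of the 3 Lipa alone was called in muscle, where it rose by 0.95.

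Resident macrophage genes followed at smaller size. Of 19 tested, 1 rose and 2 fell in NZO muscle, 14 rose and 2 fell in NZO gWAT, and 8 had a lower interaction (median -0.90). Cd68 and Adgre1, general macrophage markers, had muscle differences of 0.33 and 0.37 that were not called and rose in gWAT by 2.40 and 1.87. Fcgr1, a receptor for antibody, fell in muscle by 0.74 and rose in gWAT by 1.67. The log2 signal summed over 10 macrophage markers was 5.23 to 6.06 in NZO muscle and 5.30 to 5.39 in B6 muscle, against 7.94 to 8.21 in NZO gWAT and 6.41 to 6.81 in B6 gWAT, and all 10 were well above background on all arrays. The chemokines Ccl2 and Ccl7, which draw in monocytes, had differences of 0.56 and 0.32 in NZO muscle that were not called, and rose by 3.49 and 3.07 in NZO gWAT. Ccl2 read 4.52, 5.12, 4.71 and 4.65 in NZO gWAT and 0.69, 0.77, 2.12 and 1.46 in B6 gWAT (interaction -2.94 ± 0.45).

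Lysosomal genes rose in gWAT across the list. Of 25 tested genes of the proton pump and the cathepsins, 1 rose in NZO muscle and 21 in NZO gWAT, 14 had a lower interaction, and the median was -0.55. Ctsl, a lysosomal protease, stood at 5.42, 5.30, 5.74 and 5.73 in NZO muscle and 5.77, 5.75 and 5.69 in B6 muscle. In gWAT it stood at 8.52, 8.16, 8.05 and 8.27 in NZO mice and 6.60, 6.62, 6.67 and 6.51 in B6 mice. The strains overlapped in muscle and were 3.14-fold apart in gWAT (interaction -1.84 ± 0.18). For Ctsd, with CACGTG at 2 places in the promoter shown above, the difference was -0.10 in muscle and 0.94 in gWAT (interaction -1.04 ± 0.17). Atp6v0b read 3.07, 2.92, 2.97 and 3.23 in NZO muscle against 3.26, 3.28 and 3.30 in B6 muscle, a difference of -0.23 that was not called, and was 1.63-fold higher in NZO gWAT (interaction -0.93 ± 0.20). The E-box was found in 5 of 11 promoters of the genes with a lower interaction and in 1 of 7 promoters of the rest of the list. Macrophages also express these genes, and the macrophage levels given above moved with them; their part in the result was not tested. Omitting any of arrays 009 and 007 of NZO gWAT, 010 and 015 of B6 gWAT, 011 of NZO muscle or 010 of B6 muscle gave 9 lower calls in place of 14.

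Genes of the unfolded protein response, which restores protein folding in the endoplasmic reticulum, rose in NZO gWAT by modest amounts. Of 17 tested genes of this and the integrated stress response, 3 rose and 1 fell in NZO muscle, 9 rose and 1 fell in NZO gWAT, and 7 had a lower and 1 a higher interaction (median -0.49). With quantile normalization 3 were lower in place of 7, and Hsp90b1 (adjusted p = 0.118), Creld2 (adjusted p = 0.0854) and Atf4 (adjusted p = 0.0655) were not called. Hspa5, the chaperone BiP, read 5.14, 4.83, 5.21 and 5.26 in NZO muscle and 5.23, 5.27 and 5.16 in B6 muscle. Its gWAT levels were 6.68, 6.31, 6.37 and 6.44 in NZO mice, all above the 5.78, 5.71, 5.77 and 5.87 of B6 mice. It was 1.59-fold higher in NZO gWAT, and the muscle arrays overlapped (interaction -0.77 ± 0.16, adjusted p = 0.00579).

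Hsp90b1, a second chaperone, and Creld2 were 1.66-fold and 1.36-fold higher in NZO gWAT, with muscle differences of 0.10 and -0.04. Their interactions were -0.62 ± 0.19 and -0.49 ± 0.13 (adjusted p = 0.0349 and 0.0216). Atf3, a stress-induced transcription factor, was 8.59-fold higher in NZO gWAT and not called in muscle (interaction -3.49 ± 0.33). Atf4, the regulator of the integrated stress response, fell in NZO muscle by 0.56, while its gWAT difference of 0.23 was not called, and Asns ran the opposite way as given above. The stress element was found in the promoters of 4 of the 7 genes with a lower interaction and 1 of the 9 not called. TGATGNAA was found in 1 of these 7 (Atf3), in Asns, the 1 gene with a higher interaction, and in 2 of the 9. Without array 010 of B6 muscle, 3 genes were lower in place of 7 and Creld2 had an adjusted p of 0.0567. Hsp90b1 missed the threshold when any of arrays 009, 012 or 007 of NZO gWAT, 015 or 009 of B6 gWAT, 009 or 011 of NZO muscle, or 010 or 015 of B6 muscle was left out, with adjusted p of 0.0501 to 0.0821.

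Some clock genes were called in gWAT and none in muscle. Of 16 tested, limma called 0 in muscle, against 14.1% of all tested genes, with 4 at an unadjusted p below 0.05. In NZO gWAT 1 rose and 6 fell, against 18.2% and 17.7% of all tested genes. In the interaction 4 were higher and 1 lower (median 0.48), against 7.83% and 10.7% of all tested genes. Per3, whose promoter above holds the D-box at 2 places, read -1.78, -1.62, -2.22 and -1.96 in NZO muscle and -3.19, -2.0 and -2.80 in B6 muscle. Its gWAT levels were -2.41, -2.52, -2.71 and -2.65 in NZO mice and -1.71, -1.38, -0.67 and -1.93 in B6 mice. The muscle groups overlapped, at 1.70-fold without a call, and Per3 was 2.22-fold lower in NZO gWAT (interaction 1.92 ± 0.40, adjusted p = 0.0062). Nfil3, which represses through the D-box, had a difference of -1.0 in muscle, not called, and rose in NZO gWAT by 1.00. The D-box was found in 1 of 3 promoters of the clock genes with a higher interaction, that of Per3. It was found in 0 of 1 with a lower interaction and 0 of 10 not called. A part of Nfil3 in the Per3 values was not tested. The hour of tissue collection is not given in the labels. Without array 015 of B6 muscle, as with median centring, 2 genes were higher in place of 4, and without array 009 of B6 muscle Nfil3 had an adjusted p of 0.0536.

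**Figure D5:**
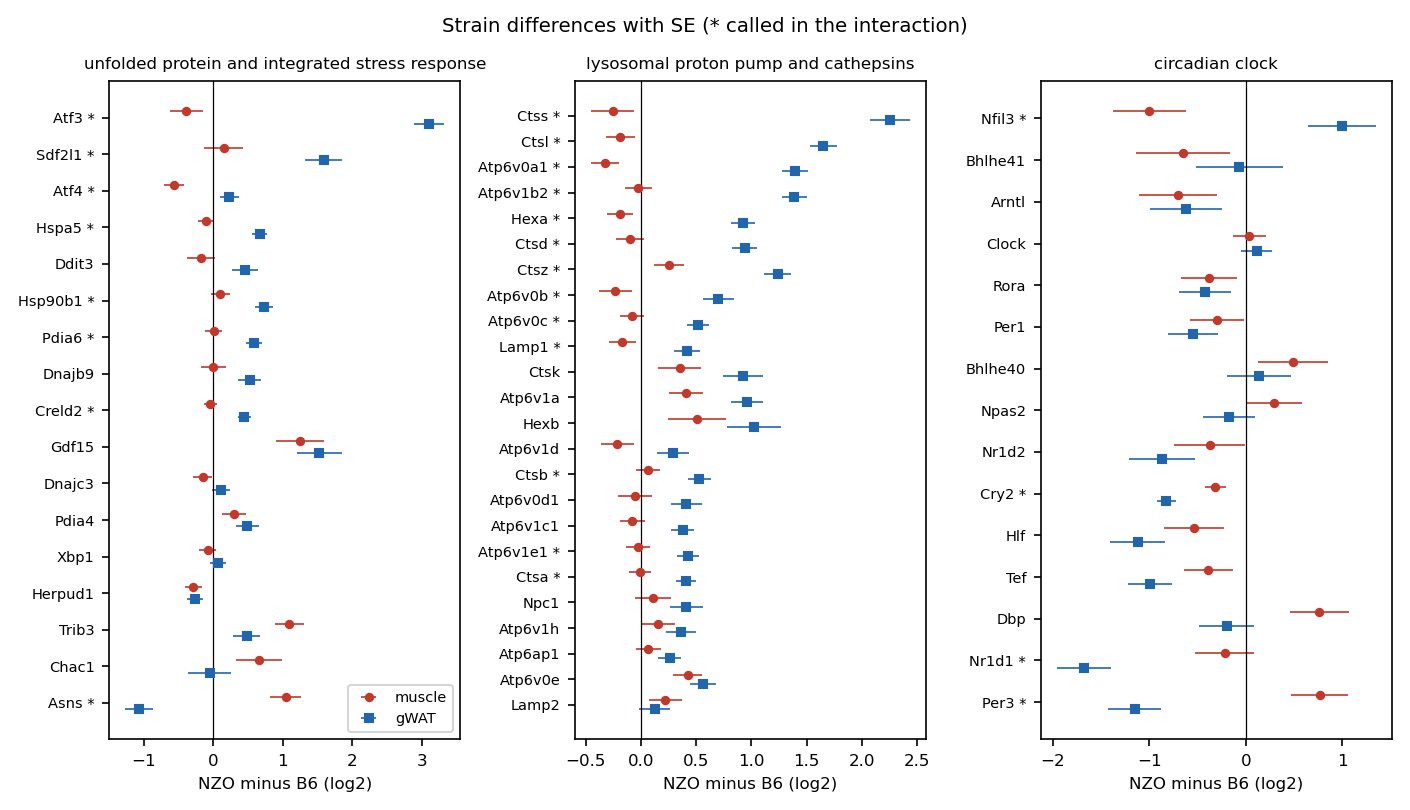
Strain difference (NZO minus B6, log2, with SE) in muscle (red circles) and gWAT (blue squares) for genes of the stress response, lysosome and clock lists; an asterisk marks genes called in the interaction. Muscle values of the lysosome list lie between -0.33 and 0.51, and gWAT values lie to the right of them for all lysosome genes shown but Lamp2.

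Of 19 tested thermogenic genes, which serve heat production, 2 fell in NZO muscle, 9 rose and 2 fell in NZO gWAT, and 8 had a lower and 1 a higher interaction (median -1.20). Cpt1b (chr15:89246836-89246895), the muscle and brown fat form of carnitine palmitoyltransferase 1, read 5.19, 4.89, 4.83 and 5.17 in NZO muscle and 5.42, 5.15 and 5.23 in B6 muscle. In gWAT it read 0.87, 0.72, 0.75 and 0.97 in NZO mice and -2.31, -2.60, -2.49 and -2.09 in B6 mice. It was 9.16-fold higher in NZO gWAT, with overlap in muscle (interaction -3.44 ± 0.19, adjusted p = 4.82e-07).

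Ucp1, which uncouples respiration to make heat in brown adipocytes, varied between arrays of a strain in muscle, at 2.72, 0.47, 1.64 and -0.40 in NZO mice and 4.91, 3.34 and 0.59 in B6 mice. In gWAT it stood at 3.51, 3.59, 3.77 and 3.96 in NZO mice and at -3.98, -4.80, -4.22 and -3.33 in B6 mice, where 3 of 4 arrays were well above background. The muscle groups overlapped and were not called, the gWAT groups lay 221-fold apart with the dim B6 array included, and the interaction was -9.63 ± 1.15 (adjusted p = 0.000166). Otop1, a proton channel found in brown fat, was 36.3-fold higher in NZO gWAT (interaction -5.51), and another probe gave -1.56, not called. Cidea, a lipid droplet protein, also varied in muscle, with 1.70 on NZO muscle 011 and 5.24 on B6 muscle 010, where Ucp1 was highest too. The log2 signal summed over 7 brown adipocyte markers was 8.80 to 9.14 in NZO muscle, 9.12 to 9.42 in B6 muscle, 5.79 to 6.47 in NZO gWAT and 2.60 to 3.49 in B6 gWAT, with Lhx8 well above background on no array. Signals were summed before the log was taken, so a bright gene can set the sum. On NZO muscle 007 the sum was 9.11, where Ucp1 read -0.40 and Otop1 -1.97. Cox7a1, 1 of these markers, is also a muscle gene, so the muscle sums do not measure brown adipocytes. The part of brown adipocytes in these results was not tested. Ppargc1a, the coactivator of mitochondrial genes, had a difference of -0.01 in muscle, not called, and fell in NZO gWAT by 1.24, an interaction of 1.23 ± 0.28.

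Among adipokines and insulin genes the interaction was called less uniformly. Of 12 tested adipokines 4 had a higher and 1 a lower interaction. Sfrp5, a secreted WNT inhibitor, had a difference of 0.02 in muscle, not called, and rose in NZO gWAT by 3.15, and Apln, which encodes apelin, rose in NZO muscle by 0.94 and fell in NZO gWAT by 0.88. Lep, which encodes leptin, rose in both tissues, 3.75-fold in NZO muscle and 2.32-fold in NZO gWAT. Its interaction of 0.69 was not called (95% interval -0.34 to 1.73). In NZO muscle Lep was -2.14, -1.17, -0.36 and -2.03, against -3.68, -3.14 and -3.17 in B6 muscle, and the highest array, 003, was also highest in adipocyte markers; their part in the muscle difference was not tested. Adipoq, which encodes adiponectin, had an interaction of 1.16 with an adjusted p of 0.0426, which lay between 0.0515 and 0.11 when any of arrays 009, 012 or 003 of NZO gWAT, 010, 011 or 015 of B6 gWAT, 009, 003 or 007 of NZO muscle, or 010 or 009 of B6 muscle was left out. When any of 009, 012 or 003 of NZO gWAT, 010 or 011 of B6 gWAT, 003 or 007 of NZO muscle, or 010 or 009 of B6 muscle was left out, 2 adipokines were higher in place of 4, as with median centring.

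Insulin signalling and glucose uptake gave 3 higher and 3 lower interactions among 29 tested genes, near the shares of all tested genes, 7.83% and 10.7%. The 3 higher include Pdk1, whose probe reads pyruvate dehydrogenase kinase and not a kinase of insulin signalling. Pdk1 fell in NZO muscle by 1.61 and in NZO gWAT by 2.35. Foxo1, a transcription factor restrained by insulin, had a difference of 0.19 in muscle, not called, and fell in NZO gWAT by 0.69 (interaction 0.88 ± 0.16). Slc2a4, the insulin-responsive glucose transporter, and Irs1, an insulin receptor substrate, each had an interaction of 0.41 that was not called (95% intervals -0.08 to 0.89 and -0.10 to 0.92). In glycolysis and glycogen metabolism 2 of 24 genes were higher and 4 lower. Pkm, the pyruvate kinase of muscle, fell in NZO muscle by 0.99 with -0.19 in gWAT, not called, while Gys1, glycogen synthase, fell in NZO muscle by 0.47 and in NZO gWAT by 1.23. Without array 009 of B6 muscle 0 of the insulin genes were lower, and without array 010 of B6 muscle 1 was. With median centring 0 insulin genes were higher and 4 lower, and with quantile normalization 3 were higher and 1 lower. For glycolysis and glycogen these counts were 0 and 4 with median centring and 4 and 2 with quantile normalization.

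Antioxidant enzymes split by gene. Of 25 tested, 4 had a higher and 6 a lower interaction, with 1 higher and 5 lower in NZO muscle and 8 higher and 9 lower in NZO gWAT. Gstt1, a glutathione transferase, and Gpx3, a secreted glutathione peroxidase, had differences of 0.19 and 0.05 in muscle, not called, and fell in NZO gWAT by 2.02 and 1.87. Hmox1, which degrades haem, had a difference of 0.03 in muscle, not called, and rose in NZO gWAT by 1.14. Nnt, described above, was the member higher in NZO muscle. Without array 010 of B6 muscle 3 members were lower in place of 6.

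Over all tested genes, 6.25% were higher and 7.82% lower in NZO muscle, and 18.2% and 17.7% in NZO gWAT. Cell cycle genes rose in both, 14 of 19 in NZO muscle and 17 of 19 in NZO gWAT. Of the 19, 4 had a lower interaction. That count was 7 without array 007 of NZO muscle, 13 with normexp background correction and 9 of 18 with the deposited value table. Aurka and Mcm2 fell in muscle by 0.65 and 0.69 and rose in gWAT by 1.14 and 0.86. In the extracellular matrix list 4 of 24 genes rose in NZO muscle and 14 in NZO gWAT, and Timp1 alone was called in the interaction (-2.73 ± 0.57), while quantile normalization gave 3 higher and 1 lower. Among 18 genes of branched-chain amino acid breakdown 5 fell in NZO muscle and 10 in NZO gWAT, with 2 lower interactions (0 without array 009 of B6 muscle), and with quantile normalization 9 were higher and 1 lower. In the fatty acid oxidation list 5 of 25 genes rose and 5 fell in NZO gWAT, near the shares of all tested genes. That list had 1 higher and 2 lower interactions of 25, the citric acid cycle 1 and 0 of 16, lipogenesis 1 and 0 of 17 (3 higher without array 007 of NZO muscle), triglyceride storage 0 and 3 of 23, and cholesterol synthesis 0 and 1 of 20 (4 lower without array 009 of B6 gWAT). With quantile normalization the higher and lower counts were 3 and 2 for fatty acid oxidation, 5 and 0 for the citric acid cycle, 6 and 0 for lipogenesis, and 7 and 3 for triglyceride storage. Triglyceride storage gave 3 and 3 with normexp and 4 and 3 with the deposited value table, so higher calls outnumbered lower ones in 2 of these 3 settings. Of 12 fast fibre genes limma called 0 in muscle, with 0 at an unadjusted p below 0.05, and 7 fell in NZO gWAT. Muscle fibre markers in gWAT were highest on B6 gWAT 010, and Myl1, a myosin light chain, had an interaction of 1.05, and of 0.85 with an adjusted p of 0.052 with that array and 2 others left out. Among interferon-induced genes 1 was higher and 2 lower of 18, and among inflammatory mediators 1 and 3 of 11, with Nos2, the inducible nitric oxide synthase, up in NZO muscle by 0.60 and down in NZO gWAT by 0.52.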

How the data were processed

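Total RNA of each sample was hybridised to 1 single-colour Agilent array. The authors deposited scanner files whose processed signal is an intensity, background-subtracted by Feature Extraction 11.0.1.1 per the file headers (the submitters' processing notes name 9.1), and a table of processed values of the same arrays, used here as an alternative. Intensities of 15 arrays were turned into log2 values, and the 75th percentile of each array was subtracted. Control spots were left out, as were outlier spots, 92 of them in the genes tested. Spots of a probe were averaged. Probes well above background on all arrays of a strain in each tissue were kept (26937 probes), and the brightest probe stood for a gene (19639 genes). Of 55681 probes, 27656 were named through RefSeq and 28025 kept the name in the files. Probe sequences were not compared with an NZO genome, and each strain difference compared between tissues rests on 1 probe.

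The means of the 4 groups were fitted with limma 3.58.1 in R 4.3.3 (lmFit, eBayes), and p-values were adjusted by Benjamini-Hochberg over all genes at 0.05. The code was tested on simulated data. The number of arrays limits the precision. Members and lists were chosen with earlier results of these data known. Named genes were the 12 highest and 12 lowest interactions, the 12 largest with opposite directions, the 8 highest and 8 lowest muscle differences with gWAT not called, the 4 largest bounds in each of 4 cases, up to 4 genes of each list by adjusted p, and Ifi202b, Lep, Adipoq, Ucp1, Ppargc1a, Nnt, Slc2a4, Irs1, Trem2 and Ccl2. The interaction, opposite and muscle groups required signal well above background on all 15 arrays. The 12 highest and 12 lowest interactions also required no overlap of the strains in the tissue with the larger strain difference. Some genes that these rules take are not reported here. Other genes were chosen after their values were seen. Lower bounds ("at least") set the bright group's mean against, on each dim array, the higher of the lowest signal well above background and the probe's own signal. Alternatives covered the arrays in the fit, background correction, scaling, the filter, the probe rule, the variance model, slide, the number in the titles and each array left out. Brown fat arrays were not analysed here except in fits of 23 and 24 arrays.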

Additional observations from a re-analysis of the deposited data

Results flagged for a closer look

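Across 129 groups of 4 samples looked at, 5 held an array far from the others, where chance gives about 1 in 20. Tpbgl stood at -2.50 on NZO gWAT 012, against -3.0 on the other 3 arrays, and at -3.73 on B6 gWAT 009, against -3.35 to -3.33. H2-DMb1 stood at 3.21 on B6 gWAT 015, against 2.93 to 2.94, and Gpnmb at -0.92 on the same array, against -1.96 to -1.85. Mstn stood at -6.82 on B6 gWAT 011, against -7.09 to -7.07, all of them not well above background.

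By the test of the difference itself, 3635 genes had a strain difference that differed between muscle and gWAT. Those named for opposite directions had interactions of -4.04 (Fos), -3.38 (Pla2g7), 3.37 (Il17re), -3.29 (Fam83d), -3.21 (Arc), 3.01 (Angpt1), -2.95 (Mpeg1), 2.93 (Rspo3), -2.89 (Tpbgl), 2.87 (Ppfia4) and 2.71 (Wnt5b).

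The library labelled B6 muscle 011, which entered no comparison, had a summed adipocyte signal of 10.36 on the log2 scale, against 7.73 to 8.06 on the other 3 B6 muscle arrays.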

How the results depend on the processing

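Of 131 named or shown genes with a called interaction, 50 kept the call in every alternative in which they were tested, 44 of them in all 32, and 127 never changed sign. With the slide as a fixed block (6 residual degrees of freedom) 198 genes were higher and 264 lower, 952 were called in muscle and 4454 in gWAT, and 24 list genes and 54 named genes were called; with it as a random block 1563 were higher and 2136 lower. On the slide with 1 array of each group, 3611 of 3619 called genes had the same sign, and Actn3 changed sign to -0.085. The arrays of that slide also entered the calls, so the shared sign cannot exclude an effect of slide. Same-numbered samples correlated at -0.18 to 0.37 over 6 pairs, and differently numbered samples of a strain at -0.37 to 0.30. So few pairs cannot settle whether the numbers mark shared animals, and the main fit did not pair samples. With the numbers as pairs, the fixed replicate block called 660 higher, 1071 lower and 63 list genes. It gave 1 lower in antigen presentation and 1 in the unfolded protein response. With median centring 467 were higher and 1396 were called in muscle. With array 011 of B6 muscle put back, 1511 were called in muscle and the interaction of Lep was -1.05, as with all 24 arrays. With normexp the interactions of Lep (-0.53), Casq1 (0.16), Angptl7 (0.065), Cds1 (-0.20) and Btla (-0.035) changed sign, and that of Lep was -0.23 with the deposited value table. Chosen after seeing the data, leaving out NZO muscle 003, NZO gWAT 012 and B6 gWAT 010 gave 991 higher, 1326 lower and 1781 in muscle. Leaving out each array in turn gave 999 to 1679 higher, 1373 to 2373 lower, 1661 to 2814 in muscle (1661 without B6 muscle 010, 1678 without B6 muscle 009), 5794 to 7137 in gWAT, 83 to 111 list genes and 102 to 119 named genes. No spot was saturated, so leaving out saturated probes changed nothing. The causes of these changes were not tested. Where a probe was well above background on no array of a group, its signal gives a lower bound and no size.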

Other observations

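The library labelled B6 muscle 011 stood above every other B6 array used here in several genes that were high in NZO gWAT. Its levels were 2.07 for Ifi202b, 3.59 for Trem2, 2.96 for Atp1a4, 1.94 for Gpnmb, 3.14 for Ccl2 and 1.48 for Otop1. Muscle fibre genes summed to 12.8 on that array on the log2 scale, against 13.3 to 13.5 on the other 3 B6 muscle arrays. It was left out of all values given above except where it is said to be put back.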
